A study of Mus musculus with 15 samples.

Results

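The Nodal and Activin pathway was followed through 10 genes: the ligand Nodal, the secreted inhibitors Lefty1 and Lefty2, the co-receptor Tdgf1, the convertase Pcsk6, the receptor Acvr2b, the signal transducers Smad2 and Smad3, and the intracellular inhibitors Smad7 and Skil. They were chosen by name from the 52636 mouse gene identifiers of the count table, with earlier results of these data known. All 10 passed the filter on low counts, which left 13451 genes to be tested.

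RNA was sequenced from epiblast-like cells (EpiLCs), cultured cells that resemble the early post-implantation epiblast. They were derived from the mouse embryonic stem cell line CRAFR26, which carries a c-RAF kinase construct that switches on ERK when 4-hydroxytamoxifen (4OHT) is added. Cells of every group had spent 2 passages as RSCs and 48 h in EpiLC medium with 12 ng/ml bFGF, 20 ng/ml Activin A and 1 µM XAV939, a tankyrase inhibitor that dampens Wnt signalling. All groups had also received the FGF receptor inhibitor PD17 (PD173074) at 250 nM for 2 h before induction. The 0h group (n = 3) was collected at that point, the 2h and 4h groups (n = 4 each) after 2 and 4 h of 250 nM 4OHT, and the rev group (n = 4) after 4 h of 4OHT followed by 2 h with an inhibitor of MEK, the kinase that activates ERK. Each group held samples of 2 clones of this single line, clone 4 and clone 8, with 2 samples per clone except for clone 4 at 0h, which had 1 because the authors discarded the other in quality control. No group combined 6 h of 4OHT without MEK inhibitor, so in rev the inhibitor and the later time cannot be told apart. Exogenous Activin A was present throughout, so no group lacked a ligand for the pathway. Nothing in the labels says whether samples of one clone came from separate cultures, and p-values therefore measure the spread between these samples, which may be partly technical.

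Nodal and Activin are ligands of the TGF-beta superfamily that bind type II receptors such as ACVR2B and type I receptors, which phosphorylate SMAD2 and SMAD3. These enter the nucleus with SMAD4 and act on target genes, among them genes that restrain the pathway itself. In the epiblast this pathway sustains pluripotency and is later needed for mesoderm and endoderm. Nodal, unlike Activin, needs the co-receptor encoded by Tdgf1 (Cripto), and only this branch is blocked by the Lefty proteins.

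Total counts were 8667880 to 13004556 per library in the 0h, 2h and rev groups and 1552022 to 6658950 at 4h, where every library was shallower than every other library of the series. The share of mitochondrial counts was also higher at 4h, with 7.21 to 12.4% against 2.67 to 6.98% elsewhere. The lowest count of any of the 10 genes in any library was 10, for Pcsk6. Levels are given as CPM, read counts relative to library size after TMM scaling, which multiplies each library size by a factor. These factors ran from 0.609 (clone 4 replicate 2 at 4h) to 1.49 (clone 8 replicate 1 at 0h). Spry4, an ERK feedback gene, averaged 0.856 CPM at 0h and 91.1, 70.4 and 14.0 CPM in the 2h, 4h and rev groups. Dusp6, another, averaged 3.35, 152, 57.4 and 19.9 CPM in the same order. For both, every library given 4OHT lay above every 0h library. Formative markers were detected in all groups, with 0h means of 12.3 CPM for Otx2, 23.2 for Fgf5 and up to 935 for Dnmt3b. The sum over 6 of them, mostly Dnmt3b, ran from 1160 to 1399 CPM at 0h and from 681 to 761 at 4h. The 6 did not move together: in 4h vs 0h, Sox2 (2.34 on the log2 scale) and Otx2 (1.13) were called higher and the other 4 lower. The sum over 7 markers of the naive state was 18.2 to 25.0 CPM at 0h, 20.4 to 25.5 at 2h, 42.7 to 171 at 4h and 22.0 to 29.6 in rev. Of these 7, 6 were called higher in 4h vs 0h, and none was at 0 in all libraries. The 6 primitive endoderm markers summed to 3.02 to 7.41 CPM over all libraries, and the 4 fibroblast markers to 0.377 to 15.4 CPM, with Postn at 0 counts in all 15. Of 4 neural markers, Sox1 and Pax6 were called higher and Nes lower in 4h vs 0h, and the median of their sum was 57.5 CPM at 0h and 67.8 at 4h. Depth, the naive markers and these neural genes thus moved with the 4h group, and their part in the 4h results was not tested. In rev vs 0h the neural genes Sox1 (1.29) and Pax6 (1.60), the naive marker Tbx3 (1.53) and the fibroblast marker Col1a1 (1.83) were also called higher on the log2 scale. Of the formative markers, Sox2 was called higher (1.24) and Dnmt3b lower (-0.45). The other 6 naive markers, Nes (-0.39) and Thy1 (-0.21), a fibroblast marker, were not called in rev vs 0h. The part of these markers in the rev results was not tested. In bulk RNA, fewer cells of a type and less RNA per cell cannot be told apart.

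Between 0h and 2h the intracellular inhibitors rose and the transducer Smad3 fell, while the secreted Lefty genes were not called. By 4h the pattern had changed: Lefty2 was 4.38-fold higher than at 0h and Lefty1 was 3.40-fold lower, Skil was below its 0h level, and Smad3 was back near it. In rev, Lefty2 was near its 0h level and Smad7 was not called against 0h. Nodal, Lefty1, Tdgf1, Acvr2b and Smad3 were called lower in rev than at 0h, and Skil higher. Of these, the call for Acvr2b was lost in 11 of 19 alternatives and that for Skil in 7 of 19. Changes are log2 fold changes from edgeR's quasi-likelihood test with an approximate standard error (SE). The test itself gives none, so the SE was taken as the absolute change divided by the square root of the F statistic. A call means a Benjamini-Hochberg adjusted p, taken over all tested genes, below 0.05. The comparisons share groups, so their lists of called genes are not independent of one another.

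In 2h vs 0h, 4 of the 10 genes were called, 2 higher and 2 lower, where 6.45% of all tested genes were called (3.98% higher, 2.46% lower). For 4h vs 0h the count was 6, with 3 higher and 3 lower, beside 39.4% of all genes (20.5% higher, 18.9% lower). For 4h vs 2h it was again 6, with 3 in each direction, beside 38.9% (19.7% higher, 19.2% lower). For rev vs 4h it was 6, with 2 higher and 4 lower, beside 30.8% (15.1% higher, 15.6% lower). For rev vs 0h it was 6, with 1 higher and 5 lower, beside 11.2% (6.49% higher, 4.66% lower). In the comparisons with 4h the share of the 10 that was called is set against a large share of all genes. The median log2 change of the 10 was -0.05, -0.07, -0.14, -0.26 and -0.45 in these 5 comparisons, and that of all tested genes was 0.01, 0.03, -0.01, 0.02 and 0.02. Scaling by the total count instead of by TMM, the edgeR default used here, moved the median gene to -0.18, -0.73, -0.57, 0.45 and -0.30. With it the higher genes' share of all calls went from 61.8 to 59.4% in 2h vs 0h, from 52.0 to 7.11% in the second comparison, from 50.6 to 9.09% in 4h vs 2h, from 49.2 to 88.0% in rev vs 4h and from 58.2 to 31.9% in rev vs 0h. Directions below are therefore relative to the typical gene.

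**Figure D1:**
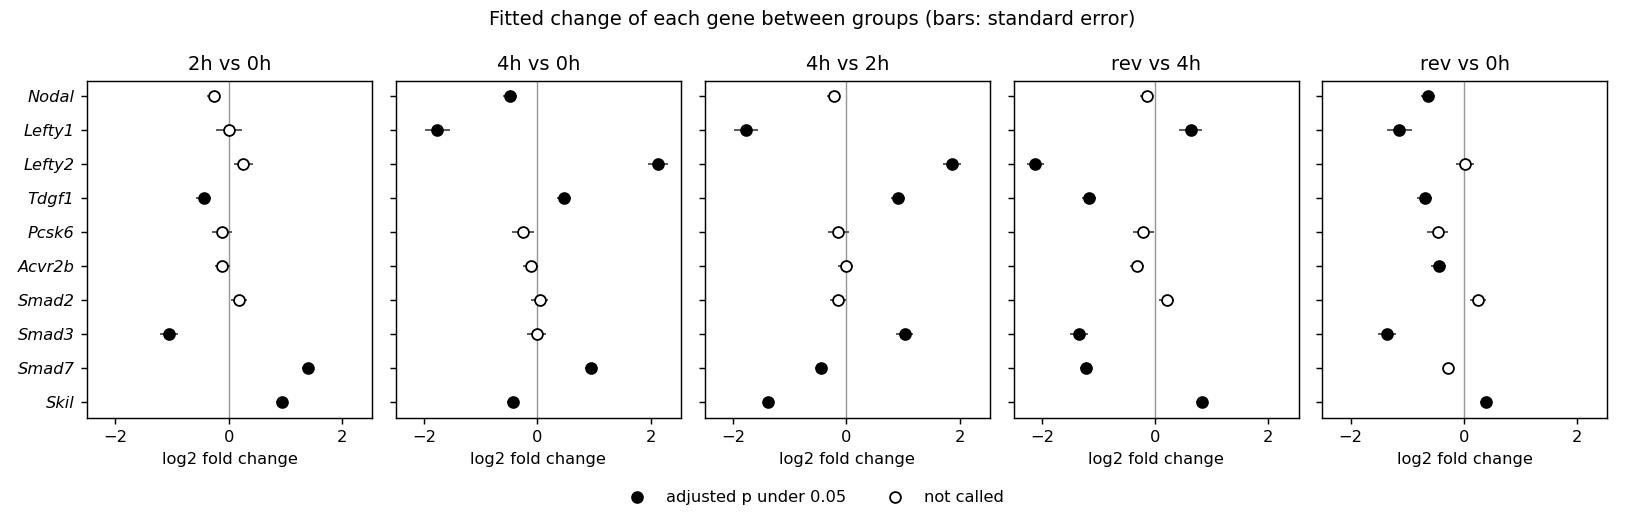
Log2 fold change of each of the 10 genes (rows) in the 5 group comparisons (panels), with the SE as bars; filled points had an adjusted p under 0.05 and open points did not. Lefty1 and Lefty2 lie on opposite sides of 0 in 4h vs 0h (-1.77 and 2.13) and in rev vs 4h (0.63 and -2.11), and Smad2 is open in every panel.

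Levels of different genes are compared here per kilobase of exon, whereas the count ratios further on carry no term for gene length. At 0h Lefty1 was by far the most abundant, at 163 ± 13.6 CPM per kb (SD, n = 3). Tdgf1 followed at 26.5 ± 1.90, Skil at 21.0 ± 3.03, Nodal at 13.9 ± 1.59 and Acvr2b at 8.87 ± 0.525 CPM per kb, each with its 3 libraries apart from those of the next gene. Smad7 (5.86 ± 0.466) and Lefty2 (5.67 ± 1.40) overlapped one another on this scale. Smad3, Pcsk6 and Smad2 were lowest, at 2.54 ± 0.579, 2.17 ± 0.305 and 2.14 ± 0.130 CPM per kb, and neighbours among them overlapped as well. At 4h the order had moved: Lefty2 stood just behind Tdgf1 at 23.9 ± 7.12 CPM per kb (SD, n = 4), and Lefty1, first at 47.8 ± 23.0, overlapped Tdgf1 at 37.8 ± 6.73.

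**Figure D2:**
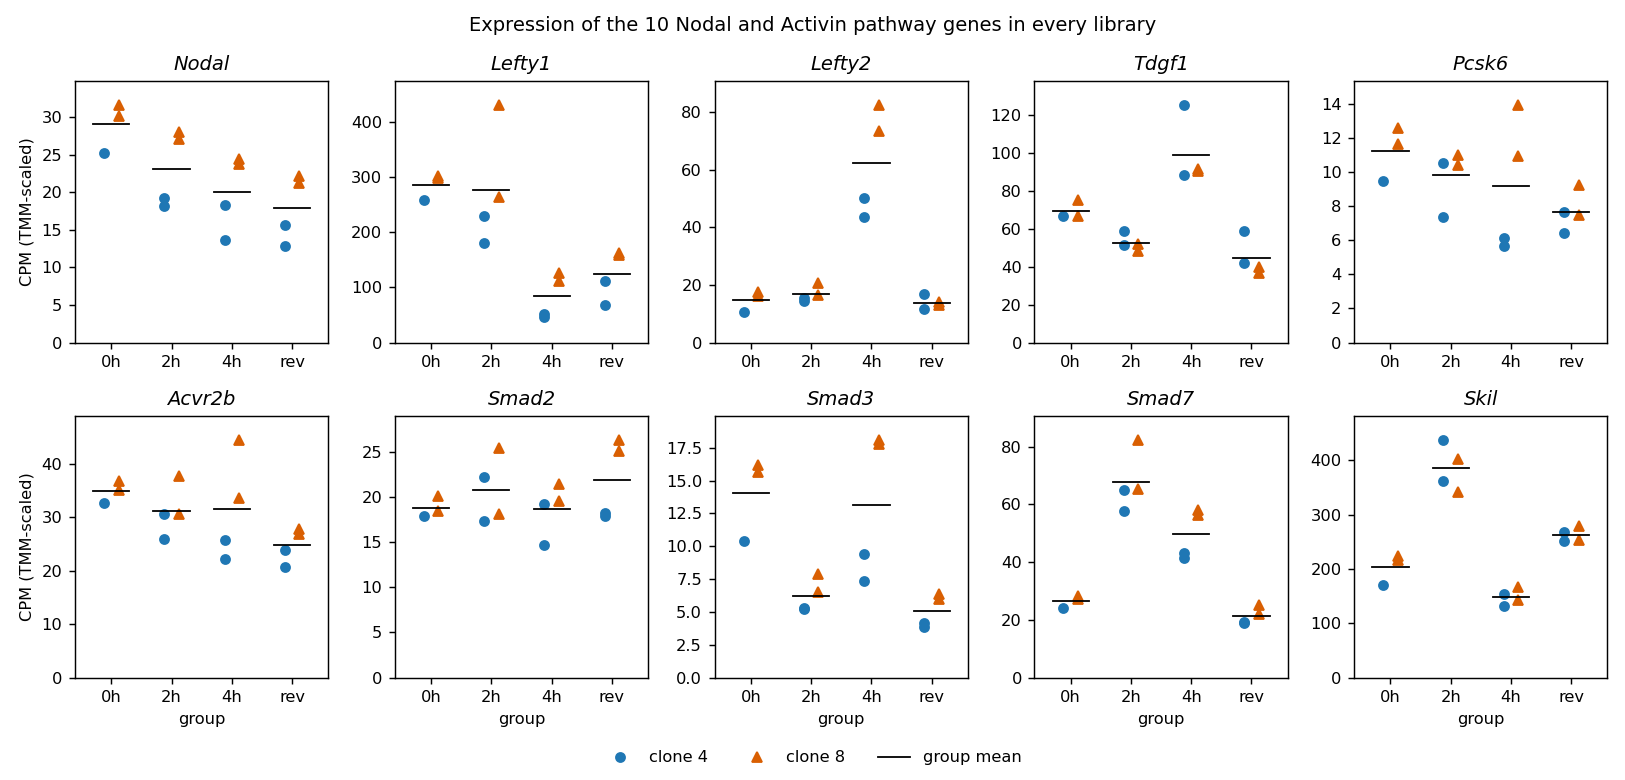
CPM on TMM-scaled libraries (vertical axes, each from 0) for the 10 genes in the 15 libraries by group, with clone 4 as circles, clone 8 as triangles and the group mean as a line. Lefty2 reaches 43.4 to 82.6 CPM at 4h and stays at or below 20.6 in all other libraries, and Skil is highest at 2h, at 341 to 438 CPM.

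Nodal, the ligand itself (ENSMUSG00000037171, chr10:61417972-61425338, plus strand, mm10), had a lower mean in each later group, by small amounts. At 0h its level was 25.3 CPM in clone 4 and 31.6 and 30.2 in clone 8. At 2h it was 18.2 and 19.2 CPM in clone 4 and 28.0 and 27.1 in clone 8, and at 4h 18.3 and 13.6 in clone 4 and 24.4 and 23.7 in clone 8. In rev it was 15.6 and 12.8 CPM in clone 4 and 22.1 and 21.3 in clone 8. The 2h libraries overlapped those of 0h, whereas every 4h and every rev library lay below the lowest 0h library. The log2 change was -0.27 (SE 0.12, adjusted p = 0.203) in 2h vs 0h, -0.48 (SE 0.12, adjusted p = 0.00372) in 4h vs 0h and -0.63 (SE 0.12, adjusted p = 0.00139) in rev vs 0h. The last step, rev vs 4h, was not called, at -0.15 (approximate 95% interval -0.38 to 0.08). Without the 0h library of clone 4 the 4h vs 0h change was -0.38 and its adjusted p 0.0518. Without a term for the clone, Nodal was called in neither comparison with 0h, with adjusted p = 0.0702 for 4h and 0.0635 for rev. By clone, the 4h vs 0h change was -0.68 in clone 4, with 1 library at 0h, and -0.36 in clone 8. The rev vs 0h change was -0.83 in clone 4 and -0.51 in clone 8.

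Nodal, Tdgf1 and Smad3 were each called lower in rev vs 0h, and their start sites are placed alike by RefSeq and GENCODE, so the 250 bases before them are shown (RefSeq, GRCm38.p6, printed 5′ to 3′ on the gene's strand). Capitals mark CAGAC, the short sequence known as the SMAD box, searched on both strands.

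Nodal, chr10:61417722-61417971, plus strand: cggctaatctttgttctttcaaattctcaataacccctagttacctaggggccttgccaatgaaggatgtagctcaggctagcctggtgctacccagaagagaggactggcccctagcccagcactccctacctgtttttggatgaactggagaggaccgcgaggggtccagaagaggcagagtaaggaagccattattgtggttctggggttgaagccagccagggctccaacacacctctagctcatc

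Tdgf1, chr9:110946159-110946408, minus strand: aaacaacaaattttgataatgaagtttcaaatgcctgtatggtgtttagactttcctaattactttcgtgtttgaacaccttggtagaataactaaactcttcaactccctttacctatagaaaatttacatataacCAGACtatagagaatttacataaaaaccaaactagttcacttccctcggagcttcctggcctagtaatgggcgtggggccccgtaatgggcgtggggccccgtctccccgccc

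Smad3, chr9:63757995-63758244, minus strand: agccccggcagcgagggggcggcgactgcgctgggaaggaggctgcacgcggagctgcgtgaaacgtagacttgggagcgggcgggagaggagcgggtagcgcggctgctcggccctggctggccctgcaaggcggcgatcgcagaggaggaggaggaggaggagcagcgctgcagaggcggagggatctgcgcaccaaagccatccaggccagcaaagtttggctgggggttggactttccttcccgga

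Over windows from 250 bases before to 50 after the start, CAGAC or its reverse occurred once in Tdgf1 and once in Acvr2b and in none of Nodal, Smad3 and Pcsk6, the 5 genes among the 10 with a window that could be shown. It occurs in 49.6% of all 32851 RefSeq promoter windows of that length. The palindrome GTCTAGAC (0.213% of windows), AATCCACA for FOXH1 (0.855%), CCGGAAGT for ETS factors (3.89%) and TATAAA (13.6%) had no match in these 5 windows. These are matches of letters and say nothing of binding. Lefty1, Lefty2 and Skil had no entry. Smad2 and Smad7, both on chromosome 18, were left out of the search, so the missing matches do not cover them.

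Lefty1 (ENSMUSG00000038793, chr1:180935022-180938400) and Lefty2 (ENSMUSG00000066652, chr1:180893108-180899103) encode secreted inhibitors of Nodal, lie 35.9 kb apart on the plus strand of chromosome 1 (mm10), and moved in opposite directions. Because they are close copies of one another, the reads that can tell them apart matter for this result. Their coding sequences, both 1104 bases long, were identical at 91.8% of aligned bases. The 90 coding bases where they differ most, at positions 35 to 124 counted from the first base of the start codon in exon 1, are shown with their 27 differing bases in capitals.

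Lefty1, chr1:180935144-180935233, plus strand: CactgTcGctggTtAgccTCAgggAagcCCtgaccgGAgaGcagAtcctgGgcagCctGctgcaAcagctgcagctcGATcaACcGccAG

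Lefty2, chr1:180893218-180893307, plus strand: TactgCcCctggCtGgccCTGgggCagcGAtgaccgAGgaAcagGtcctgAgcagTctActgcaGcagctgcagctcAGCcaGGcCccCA

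Of all 50-base windows of the Lefty1 transcript, 17.9% also occur in Lefty2. The share is 11.2% for 75-base and 4.80% for 100-base windows. Read length and the treatment of such reads are not given in the sources used here, so the level of each Lefty gene carries this uncertainty.

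Lefty1 was high before and shortly after induction. Before induction it stood at 258 CPM in clone 4 and 301 and 298 in clone 8, and at 2h it was 229 and 180 in clone 4 and 263 and 431 in clone 8. At 4h it was 51.9 and 47.1 CPM in clone 4 and 126 and 111 in clone 8, and in rev 112 and 68.7 in clone 4 and 162 and 158 in clone 8. Every 4h and every rev library lay below all 0h and 2h libraries, whereas 4h and rev overlapped. The fitted log2 change was 0.01 in 2h vs 0h (approximate 95% interval -0.43 to 0.45) and -1.77 (SE 0.23, adjusted p = 7.39e-05) in 4h vs 0h. In rev vs 0h it was -1.14 (SE 0.22, adjusted p = 0.00653), and -1.19 with adjusted p = 0.105 when the clone term was left out. Lefty1 was called higher in rev vs 4h at 0.63 (SE 0.21, adjusted p = 0.0411). That call was lost when any of 6 of the 8 libraries was left out, all but clone 8 replicate 1 at 4h and clone 4 replicate 2 of rev, with adjusted p up to 0.125. In all it was lost in 12 of 20 alternatives, always with the same sign. Among these were edgeR's earlier quasi-likelihood variant (0.60, adjusted p = 0.0638), the fit without the clone term (0.57, adjusted p = 0.319) and thinning (0.72, adjusted p = 0.0512). By clone, the change was 0.87 in clone 4 and 0.43 in clone 8.

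Lefty2 was low at 0h, at 10.6 CPM in clone 4 and 16.3 and 17.4 in clone 8, and stayed there at 2h, with 14.3 and 15.5 in clone 4 and 16.6 and 20.6 in clone 8. After 4 h of 4OHT it was 50.1 and 43.4 CPM in clone 4 and 73.3 and 82.6 in clone 8. In rev it was 16.8 and 11.6 CPM in clone 4 and 14.0 and 13.1 in clone 8. The 4 libraries of 4h were above all 11 others, and the other 3 groups overlapped. Its log2 change was 2.13 (SE 0.17, adjusted p = 6.53e-09) in 4h vs 0h and -2.11 (SE 0.16, adjusted p = 2.71e-09) in rev vs 4h. In rev vs 0h it was 0.02 (approximate 95% interval -0.30 to 0.34). Every call for Lefty2 that involved the 4h group was kept, with its sign, in every alternative run, including scaling by total count and thinning every library to the smallest. The same held for the drop of Lefty1 at 4h against either earlier group.

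The ratio of Lefty1 to Lefty2 counts within a library does not depend on scaling between libraries. Its log2 was 4.59, 4.20 and 4.09 at 0h, and 3.99, 3.53, 3.98 and 4.38 at 2h. The 4h values were 0.05, 0.12, 0.78 and 0.43, and in rev 2.73, 2.56, 3.52 and 3.58. The 4h libraries were all below those of the other groups, with the clone 4 libraries near equal counts of both genes and Lefty1 still ahead in clone 8. Per kilobase of exon, Lefty1 was ahead in clone 4 at 4h too, at 29.5 and 26.8 CPM per kb against 19.2 and 16.6 for Lefty2. The mean log2 ratio fell by 3.63 from 2h to 4h, a 12.3-fold change with no overlap between groups. A two-sided exact permutation test over samples gave p = 0.0286, the smallest that 4 against 4 libraries allow, and 0.0779 after Benjamini-Hochberg adjustment over the 15 ratio tests. Against the 3 libraries of 0h the smallest possible p was 0.0571, so none of the 15 ratio tests could pass after adjustment.

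Set against their target, Lefty1 and Lefty2 together gave 3.37 ± 0.0433 (log2 of the ratio to Nodal counts, SD, n = 3) at 0h and 3.61 ± 0.353 (n = 4) at 2h. The corresponding values were 2.80 ± 0.277 at 4h and 2.91 ± 0.185 in rev. All libraries of 4h and rev were below all libraries of 0h and 2h in this ratio. The difference was -0.58 in 4h vs 0h and -0.46 in rev vs 0h, each with an exact permutation p of 0.0571 and an adjusted p of 0.0779.

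**Figure D3:**
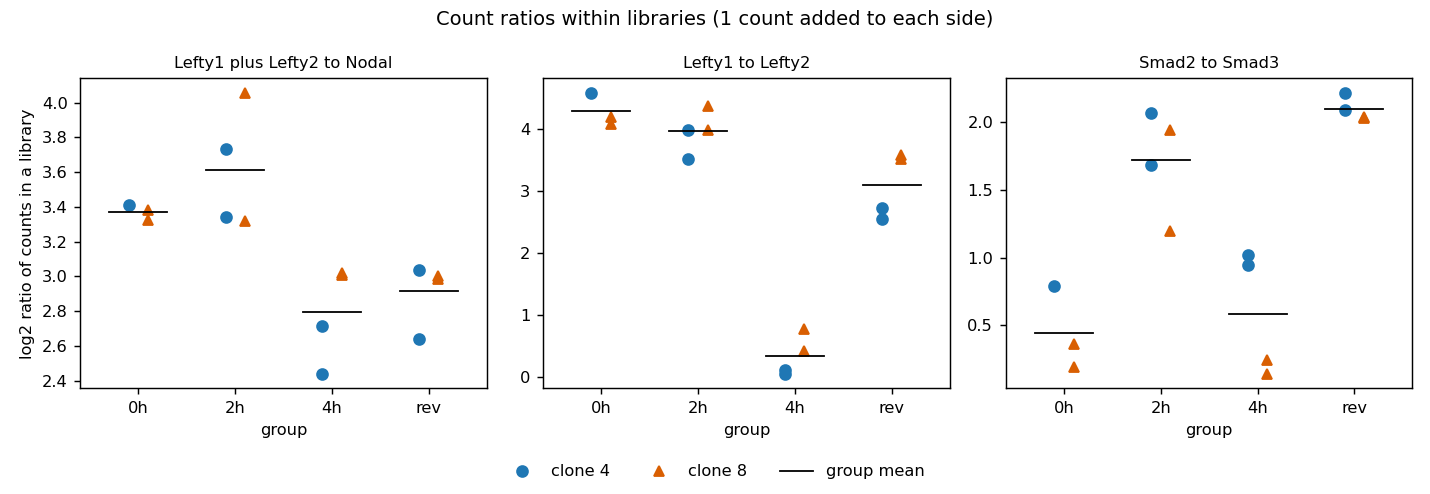
Log2 ratio of counts within each library (vertical axes) by group for Lefty1 plus Lefty2 to Nodal, Lefty1 to Lefty2 and Smad2 to Smad3, with clone 4 as circles, clone 8 as triangles and group means as lines. Lefty1 to Lefty2 drops from means of 4.29 and 3.97 at 0h and 2h to 0.34 at 4h, and Smad2 to Smad3 is above 1 in all 2h and rev libraries.

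Tdgf1 (ENSMUSG00000032494, chr9:110939603-110946158, minus strand), which encodes the membrane-anchored co-receptor Cripto, moved down, up and down again. Its 0h level was 66.8 CPM in clone 4 and 66.6 and 75.4 in clone 8, and at 2h it was 51.4 and 58.8 in clone 4 and 52.1 and 48.2 in clone 8. At 4h it was 88.6 and 125 CPM in clone 4 and 90.4 and 91.6 in clone 8, and in rev 58.8 and 42.1 in clone 4 and 39.8 and 36.9 in clone 8. The 4h libraries were above all others and the 0h libraries were next, while 2h and rev overlapped. The log2 change was -0.44 (SE 0.13, adjusted p = 0.0415) in 2h vs 0h, 0.91 (SE 0.12, adjusted p = 4.54e-06) in 4h vs 2h and -1.16 (SE 0.12, adjusted p = 3.41e-07) in rev vs 4h. In rev vs 0h it was -0.69 (SE 0.13, adjusted p = 0.00117). The drop at 2h was lost when any of 6 of the 7 libraries was left out, all but clone 4 at 0h, with adjusted p up to 0.168. In 4h vs 0h Tdgf1 was called higher at 0.47 (adjusted p = 0.00718). The change was 0.34 with adjusted p = 0.0928 without the 0h library of clone 4. It was -0.25 with adjusted p = 0.452 under scaling by total count, which also ended the call in 4h vs 2h (0.35, adjusted p = 0.266). By clone, the 4h vs 0h change was 0.68 in clone 4, with 1 library at 0h, and 0.36 in clone 8. The rev vs 0h change was -0.40 in clone 4 and -0.89 in clone 8.

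Pcsk6 (ENSMUSG00000030513, chr7:65861734-66050386, plus strand) encodes the convertase PACE4, which can cleave the Nodal precursor, and it was called in no comparison between groups. Its mean was 11.2 ± 1.58 CPM (SD, n = 3) at 0h, and the 2h, 4h and rev groups averaged 9.83 ± 1.68, 9.17 ± 3.98 and 7.69 ± 1.17 (n = 4 each). The clones parted at 4h, with 6.11 and 5.68 CPM in clone 4 and 10.9 and 13.9 in clone 8. In rev vs 4h the log2 change was 0.26 in clone 4 and -0.56 in clone 8. Every rev library, at 6.40 to 9.23 CPM, was below the lowest 0h library at 9.50, and the log2 change was -0.46 (SE 0.18, adjusted p = 0.11). It was called there under 3 alternatives, with DESeq2 at adjusted p = 0.0417. Scaling by total count called Pcsk6 lower in 4h vs 0h (-1.01, adjusted p = 0.00709). Relative to the median gene under that scaling, the change was -0.28. An overlapping gene model, Gm45213, shares 3.01% of its exon bases, and the other 9 genes share none.

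Acvr2b (ENSMUSG00000061393, chr9:119402118-119434995, plus strand) encodes a type II receptor for Activin and Nodal. At 0h its level was 32.7 CPM in clone 4 and 36.8 and 35.1 in clone 8, and in rev it was 23.8 and 20.6 in clone 4 and 27.8 and 26.9 in clone 8. The rev libraries lay below those of 0h, and the 2h and 4h libraries, at 26.0 to 37.7 and 22.2 to 44.5 CPM, overlapped them. The log2 change in rev vs 0h was -0.44 (SE 0.13, adjusted p = 0.0344). That call was lost without either of 2 libraries at 0h (clone 4, and clone 8 replicate 1) and without any rev library other than clone 4 replicate 1, with adjusted p up to 0.272. In rev vs 4h it missed the threshold at -0.32 (SE 0.13, adjusted p = 0.0574), and it passed without clone 4 replicate 2 at 4h (-0.43, adjusted p = 0.0177). By clone, the rev vs 4h change was -0.10 in clone 4 and -0.51 in clone 8. Scaling by total count called Acvr2b lower in 4h vs 0h (-0.85, adjusted p = 0.00992). Relative to the median gene under that scaling, the change was -0.12.

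The receptor-activated SMADs parted. Smad2 (ENSMUSG00000024563, chr18:76241580-76310963, plus strand) was called in none of the 5 comparisons, with means of 18.8 ± 1.14 CPM at 0h (SD, n = 3) and 20.8 ± 3.78, 18.7 ± 2.90 and 21.9 ± 4.45 at 2h, 4h and in rev (n = 4 each). Its log2 change against 0h was 0.18 (approximate 95% interval -0.09 to 0.46) at 2h, 0.04 (-0.25 to 0.32) at 4h and 0.24 (-0.03 to 0.52) in rev. Only scaling by total count called it, lower in 4h vs 0h (-0.72, adjusted p = 0.0376) and in 4h vs 2h (-0.69, adjusted p = 0.0396). Relative to the median gene under that scaling, the 4h vs 0h change was 0.01.

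Smad3 (ENSMUSG00000032402, chr9:63646767-63757994, minus strand) carries the same kind of signal but, unlike the main form of SMAD2, binds DNA directly. The 0h libraries held 10.4 CPM in clone 4 and 16.2 and 15.6 in clone 8, and at 2h it was 5.33 and 5.22 in clone 4 and 6.54 and 7.87 in clone 8. The 4h values were 7.33 and 9.38 CPM in clone 4 and 17.8 and 18.1 in clone 8, and in rev 3.85 and 4.13 in clone 4 and 6.34 and 6.02 in clone 8. All 2h and rev libraries were below all 0h libraries, the 4h libraries spanned those of 0h, and within each clone 4h lay above 2h and rev. The fitted log2 change was -1.05 (SE 0.16, adjusted p = 0.000164) in 2h vs 0h and 1.03 (SE 0.15, adjusted p = 2.15e-05) in 4h vs 2h. It was -1.34 (SE 0.16, adjusted p = 1.59e-06) in rev vs 4h and -1.36 (SE 0.16, adjusted p = 1.03e-05) in rev vs 0h. In 4h vs 0h it was -0.02 (approximate 95% interval -0.33 to 0.30). Under scaling by total count the rise from 2h to 4h was 0.45 and not called (adjusted p = 0.232), and the 4h vs 0h change was -0.79 and called (adjusted p = 0.032).

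Within libraries, the log2 ratio of Smad2 to Smad3 counts was 0.79, 0.19 and 0.36 at 0h and 1.68, 2.07, 1.95 and 1.20 at 2h. It was 0.94, 1.02, 0.14 and 0.24 at 4h and 2.22, 2.09, 2.03 and 2.04 in rev. Every 2h and rev library was above every 0h and 4h library. The rise of 1.51 from 4h to rev, 2.85-fold, had an exact permutation p of 0.0286 and an adjusted p of 0.0779.

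Smad7 (ENSMUSG00000025880, chr18:75367529-75395935, plus strand), an inhibitory SMAD that blocks the activated type I receptor, had the largest rise of the 10 genes at 2h. Before induction it stood at 24.1 CPM in clone 4 and 28.1 and 27.3 in clone 8, and at 2h it was 65.0 and 57.8 in clone 4 and 65.4 and 82.3 in clone 8. After 4 h of 4OHT it was 41.5 and 43.2 CPM in clone 4 and 58.0 and 56.2 in clone 8, and in rev 18.8 and 19.2 in clone 4 and 22.0 and 25.0 in clone 8. The 2h and 4h libraries were all above those of 0h and rev, and 2h and 4h touched at 57.8 and 58.0 CPM. Its log2 change was 1.40 (SE 0.11, adjusted p = 2.32e-08) in 2h vs 0h, a call kept in every alternative run. It was 0.95 (SE 0.11, adjusted p = 6.75e-07) in 4h vs 0h, -0.45 (SE 0.10, adjusted p = 0.000818) in 4h vs 2h and -1.22 (SE 0.10, adjusted p = 9.37e-09) in rev vs 4h. In rev vs 0h it was -0.27 (adjusted p = 0.0889; approximate 95% interval -0.48 to -0.07). The 4h vs 0h call was lost under scaling by total count (0.22, adjusted p = 0.529).

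Skil (ENSMUSG00000027660, chr3:31095058-31122577, plus strand) encodes SnoN, a nuclear co-repressor of SMAD complexes, and its course differed from that of Smad7 after 2h. At 0h its level was 170 CPM in clone 4 and 216 and 224 in clone 8, and at 2h it was 363 and 438 in clone 4 and 403 and 341 in clone 8. At 4h it was 132 and 154 CPM in clone 4 and 143 and 167 in clone 8, and in rev 252 and 267 in clone 4 and 253 and 279 in clone 8. The groups did not overlap: 4h was lowest, then 0h, then rev, and 2h was highest. The highest 4h library, at 167 CPM, lay just below the lowest 0h library, at 170. The log2 change was 0.94 (SE 0.11, adjusted p = 5.58e-06) in 2h vs 0h and -1.38 (SE 0.10, adjusted p = 8.42e-10) in 4h vs 2h. It was -0.43 (SE 0.10, adjusted p = 0.00214) in 4h vs 0h, 0.82 (SE 0.10, adjusted p = 1.57e-06) in rev vs 4h and 0.39 (SE 0.10, adjusted p = 0.019) in rev vs 0h. The call in 4h vs 0h was lost after thinning (-0.27, adjusted p = 0.391). By clone, that change was -0.25 in clone 4, with 1 library at 0h, and -0.51 in clone 8. The call in rev vs 0h was lost without the 0h library of clone 4 (0.26, adjusted p = 0.234) and without replicate 2 of either clone in rev (adjusted p of 0.0534 for clone 4 and 0.0692 for clone 8). Under scaling by total count the rise at 2h was 0.75 and not called (adjusted p = 0.178), and the rev vs 0h change was 0.08.

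The clones differed in level. In clone 8 vs clone 4, with the group in the model, 7 of the 10 genes were called higher and none lower, where 18.5% of all tested genes were called (10.4% higher, 8.11% lower). The log2 difference was 0.80 (SE 0.16, adjusted p = 0.00346) for Lefty1, 0.68 (SE 0.11, adjusted p = 0.000162) for Smad3 and 0.53 (SE 0.08, adjusted p = 0.000104) for Nodal. Pcsk6, Lefty2, Acvr2b and Smad7 followed at 0.45, 0.39, 0.36 and 0.31. Tdgf1 (-0.20, adjusted p = 0.131), Smad2 (0.26, adjusted p = 0.0645) and Skil (0.08, adjusted p = 0.485) were not called. Spry4 was lower in clone 8 by comparison, at -0.93 (SE 0.09, adjusted p = 4.92e-07), and Dusp6 was not called, at -0.52 (SE 0.22, adjusted p = 0.139). The calls for Lefty2 (without the 0h library of clone 4, or clone 4 replicate 2 at 4h, 0.33 each, adjusted p of 0.0645 and 0.0534) and Pcsk6 (without clone 4 replicate 2 at 4h, 0.37, adjusted p = 0.0525) rested on single libraries. With 2 clones of 1 line, a clone and the history of its cultures cannot be told apart.

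The response itself was compared between the clones with interaction terms. None of the 10 genes was called in edgeR's joint test over the groups, where 3.18% of all genes were called, and 2 of the 10 had an unadjusted joint p under 0.05 (Lefty2 0.0173 and Lefty1 0.0454). Nor was any of them called in a single comparison. The shares of all genes called there were 0.23% for 2h vs 0h, 3.87% for 4h vs 0h, 3.14% for 4h vs 2h, 2.8% for rev vs 4h and 0.0818% for rev vs 0h. Of the 50 unadjusted p-values of the 10 genes, 8 were under 0.05. The shares of all genes with an unadjusted p under 0.05 are not given here. The unadjusted counts, joint or single, therefore cannot be read as particular to these genes. Lefty1 fell by 2.38 on the log2 scale in clone 4 and by 1.34 in clone 8 in 4h vs 0h, a difference of 1.05 (SE 0.33, adjusted p = 0.0986). Lefty2 rose by 2.13 in clone 4 and 2.21 in clone 8 in 4h vs 0h, and in rev vs 4h it fell by 1.71 and 2.53, a difference of -0.81 (SE 0.25, adjusted p = 0.0888). Clone 4 had 1 library at 0h, whose spread was taken from the other groups.

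**Figure D4:**
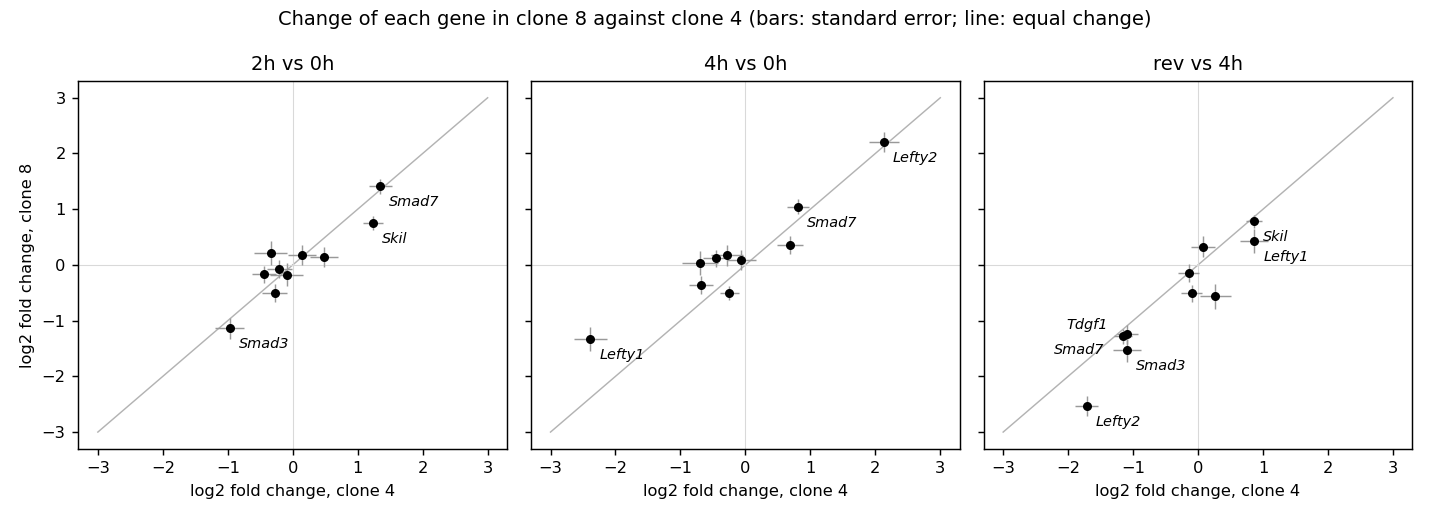
Log2 fold change in clone 8 (vertical) against clone 4 (horizontal) for the 10 genes in the comparisons named above the panels, with SE as bars and a line of equal change; genes changed by more than 0.8 in either clone are named. Lefty1 in 4h vs 0h (-2.38 and -1.34) and Lefty2 in rev vs 4h (-1.71 and -2.53) lie farthest from the line among the named genes.

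The wider pathway was followed through 42 further genes, of which 34 passed the filter. Of these, 4 were called higher and 1 lower at 2h than at 0h, beside 3.98 and 2.46% of all tested genes. Fst, which encodes the Activin-binding protein follistatin, averaged 12.2 ± 2.84 CPM at 2h (SD, n = 4) against 3.55 ± 1.95 at 0h (n = 3), a log2 change of 1.92 (SE 0.29, adjusted p = 0.000392). Inhbb, which encodes the beta B subunit of Activin, was at 0 to 4 counts per library at 0h and at 18 to 54 at 2h (log2 change 4.23, adjusted p = 6.99e-06), so the size of its change rests on very few counts. Tgif1, a SMAD co-repressor, rose by 0.62 and Gdf3, a Nodal-related ligand, was lower (-0.51).

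By 4h, 10 of the 34 were called higher than at 0h and 3 lower, beside 20.5 and 18.9% of all tested genes. Tgif1 was at 64.9 ± 9.30 CPM (SD, n = 4) at 4h against 22.1 ± 0.369 (n = 3) at 0h (log2 change 1.56, adjusted p = 3.42e-09). Eomes, a mesendoderm transcription factor and Nodal target, rose by 1.56 to 6.12 ± 2.23 CPM, and Tgfbr2, the type II TGF-beta receptor, by 1.58 on 2 to 8 counts per library at 4h. Bambi, a decoy receptor, was lower at -1.97 (adjusted p = 0.00012), with 1 to 10 counts per library at 4h. Ppm1a, a SMAD phosphatase, was slightly lower at -0.34.

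From 2h to 4h, 8 rose and 8 fell, beside 19.7 and 19.2% of all tested genes. Nedd4l, a ubiquitin ligase for SMADs, rose by 1.24, Eomes by 1.20 and Gdf3 by 1.14. Fst and Bambi were lower at -1.15 and -1.71, and Inhbb, at 0 to 3 counts per library at 4h, was at least 2.63-fold lower when set against the level of 3 counts per library.

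From 4h to rev, 7 rose and 9 fell, beside 15.1 and 15.6% of all tested genes, and among those that fell were Tgif1 (-1.11), Gdf3 (-1.03) and Nedd4l (-0.95). Fst rose by 1.34 and Bambi by 1.75, and Inhbb was at least 2.16-fold higher against the same floor, though its groups overlapped. Against 0h, 7 were called higher in rev and only 1 of the 34, the ubiquitin ligase Smurf1, lower (-0.63), beside 6.49 and 4.66% of all tested genes. Fst stood at 13.9 ± 2.58 CPM in rev, a log2 change of 2.11 from 0h (adjusted p = 0.000123), and Tgfbr2 (2.33) was also higher. Inhbb was called higher too, at 9 to 43 counts per library in rev against 0 to 4 at 0h, too few for a firm size. The median log2 change of the 34 was 0.23, 0.32, 0.09, -0.08 and 0.19 in the 5 comparisons in the order given.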

How the data were processed

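RNA after ribosomal RNA depletion was sequenced from 15 samples of EpiLCs. The authors deposited raw counts per gene, whole numbers with no normalization seen in the values. The submitters' processing notes name bcl2fastq 2.19.1, STAR 2.5.3a and the build mm10. The counting tool, annotation and strand setting are not given in the sources used here. Names, exon lengths and coordinates came from GENCODE M21 (GRCm38, the assembly of mm10), which held 52489 of the 52636 identifiers, and promoter windows from RefSeq (GRCm38.p6).

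Counts were fitted in R 4.3.3 with edgeR 4.0.16: genes kept by filterByExpr with groups as design (at least 10 counts, 15 in total), TMM scaling (trimmed mean of M-values), robust quasi-likelihood F tests on group and clone over all 15 samples, and Benjamini-Hochberg adjustment over 13451 genes. The script was tested on simulated data. The quasi-likelihood variant was chosen after both of edgeR's variants had been run, and the earlier one is an alternative. For the 10 genes the earlier variant changed 1 call, that of Lefty1 in rev vs 4h, which it lost. A library of 1552022 counts measures a gene at 10 counts only coarsely, and the floor was 3 counts per library. Count ratios had 1 count added to each side and were compared with two-sided exact permutation tests in SciPy 1.17.1 (Python 3.11.15). Approximate intervals are normal, from the SE. Alternatives covered scaling, filters, thinning, the clone term, a replicate block, DESeq2 1.42.0 and leaving out each sample. The 10 genes and the lists of other pathway genes and markers were chosen with earlier results of these data known. All 10 are described, and of the other pathway genes up to 3 called in each direction per comparison, by largest change, with a mean of at least 1 CPM, except that 1 such gene is not reported here. Spry4 and Dusp6 served as a check of ERK output.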

Additional observations from a re-analysis of the deposited data

Results flagged for a closer look

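Of 39 groups of 4 libraries tested, 3 had a library far from the rest, with a gap to its neighbour above 0.829 of the group's range. Chance alone flags about 1 in 20 groups. Tdgf1 was at 125 CPM in clone 4 replicate 2 at 4h, the highest of its group, with a gap of 0.918 of the range. Pcsk6 was at 7.34 CPM in clone 4 replicate 2 at 2h, the lowest of its group, with a gap of 0.851. The log2 ratio of Lefty1 plus Lefty2 to Nodal was 2.64 in clone 4 replicate 2 of rev, the lowest of its group, with a gap of 0.869. No test was made of why these libraries stood apart.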

How the results depend on the processing

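Of the 35 calls for the 10 genes over the 5 group comparisons and the clone comparison, 11 were kept with their sign in every alternative: Smad7 in 2h vs 0h, Lefty1 and Lefty2 at 4h against either earlier group, Skil in 4h vs 2h, Lefty2, Tdgf1, Smad7 and Skil in rev vs 4h, and Lefty1 between clones. Over all alternatives, 81 of 698 values for called genes lost the call and 1 reversed. Scaling by total count reversed Tdgf1 (-0.25) and Smad2 (-0.72) in 4h vs 0h and left 2 of the 10 genes called in 2h vs 0h and 2 between clones. It also newly called Pcsk6 (-1.01), Acvr2b (-0.85) and Smad3 (-0.79) lower in 4h vs 0h. In 4h vs 2h it newly called Nodal (-0.75) and Smad2 (-0.69) lower. The median gene stood at -0.73 and -0.57 in these comparisons under that scaling. Thinning every library to 1548182 counts left 2 called in 2h vs 0h, 2 in 4h vs 0h, 1 in rev vs 0h and 1 between clones, and each library then held few counts of these genes. For rev vs 0h, 2 were called without the clone term and 3 in clone 8 alone. Leaving out 1 library gave 3 to 4 calls in 2h vs 0h, 4 to 6 in 4h vs 0h, 6 in 4h vs 2h, 5 to 6 in rev vs 4h, 4 to 6 in rev vs 0h and 6 to 8 between clones. The shares of all tested genes called in these settings, and with the replicate block below, are not given here. A lower count of these genes therefore cannot be told from fewer calls over all genes. With 0h of clone 4 left out, the joint test of the clones' responses could not be fitted. TMM and DESeq2's size factors gave the same calls throughout. The adjusted p of a count ratio could not pass in any setting, so those tests say nothing about stability.

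Same-numbered samples did not deviate together: 1 of 9 pairs had a correlation above 0.1 (range -0.19 to 0.26), so the numbers were not taken to pair samples. A replicate block in place of the clone term gave 3 called genes for 2h vs 0h, 6 each for 4h against 0h and 2h, 7 for rev vs 4h and 5 for rev vs 0h. It lost Tdgf1 in 2h vs 0h (-0.46, adjusted p = 0.0515) and Acvr2b in rev vs 0h (-0.40, adjusted p = 0.0523) and gained Acvr2b in rev vs 4h (-0.32, adjusted p = 0.0416), by edgeR's quasi-likelihood test.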
